A study of Homo sapiens with 12 samples.

Results

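TNFα alone was compared with the solvent DMSO in HT-29, an established human colon adenocarcinoma cell line, after 8 h. The comparison takes every gene with an average of at least 10 normalized reads over the DMSO and TNFα groups, which held for 11694 of the 26485 genes listed. A gene under 10 in DMSO enters only if its TNFα level brings the average to 10. Counts and medians of lists with such members lean towards rises for this reason. The question was which genes 10 ng/ml TNFα raises and lowers when nothing is added that blocks IAP proteins or caspases. Each group had 3 libraries of polyA RNA from unmodified cells in McCoy's 5A medium, and no source states if the 3 came from separate cultures. The other groups of the study, also 3 libraries each at 8 h, received TSZ (10 ng/ml TNFα with the Smac mimetic SM-164 at 50 nM and the caspase inhibitor zVAD at 20 μM) or TSZ with 10 μM Nec-1s, an inhibitor of the RIPK1 kinase. No group was given SM-164, zVAD or Nec-1s alone. HT-29 is 1 line without immune cells beside it, so responses that pass between cell types were not measured.

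TNFα binds the receptor TNFR1 and assembles a complex of RIPK1, TRAF and IAP proteins, in which ubiquitin chains recruit the kinases TAK1 and IKK. IKK marks IκB proteins for degradation, which frees NF-κB dimers to enter the nucleus and bind κB sites, and TAK1 also starts the JNK and p38 kinases that act on AP-1. In intestinal epithelium this pathway is known for chemokines that draw leukocytes, for survival genes, and for inhibitors such as IκBα and A20 that switch the signal off again.

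The deposited tables give a mean per group, from which whole reads per library were recovered for 11676 of the 11694 genes. The 6 libraries held an estimated 8781228 to 10669793 reads. For the other 18 genes, all at very high levels (ACTB, ACTG1, EEF1A1, EEF2, FTH1, FTL, GAPDH, HMGA1, HSP90AB1, HSPA8, KRT18, KRT8, PKM, RPL10, RPL4, RPL8, RPS2 and TPT1), no test was made. Values are reads divided by the library's size factor, with letters a to c for the libraries of each group, and the test is limma over all 12 libraries with Benjamini-Hochberg adjusted p-values, called under 0.05. Of the 18 colon epithelium markers, EPCAM, CDH1, KRT19, KRT20, VIL1, LGALS4, MUC13 and AGR2 were each over 500 normalized reads in both groups. CEACAM5 and CEACAM6 were lower, at 28.81 and 68.41 in DMSO and at 38.36 and 75.32 with TNFα. CDX1, CDX2, CDH17, GPA33, FABP1 and TFF3 were under the level, so the markers bear out the colon label only in part. The leukocyte markers PTPRC, CD3E, CD3D, MS4A1, FCGR3A, CSF1R and HLA-DRA had no reads in any of the 6 libraries. Of the same list of 12, LYZ, CD68, CD14 and ITGAM did have reads in DMSO. The list together held 15040 to 15350 normalized reads per DMSO library and 14810 to 16010 with TNFα, mostly LYZ. The 12 fibroblast and endothelial markers together held 145, 217.6 and 57.7 normalized reads in DMSO a, b and c and 52.3 to 63.1 with TNFα, mostly COL1A1 and COL1A2. In these bulk libraries fewer cells making a transcript and less of it per cell cannot be told apart.

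TNFα raised 344 genes and lowered 118. Leaving out 1 library moved the higher count to between 225 (without TNFα library c) and 369, and the lower count to between 40 (without TNFα library b) and 217 (without DMSO library b), and with only the 6 libraries in the fit the counts were 194 and 26. By size, 148 genes rose by 2-fold or more and 39 fell by as much, 49 rose 4-fold or more and 24 rose 8-fold or more, while 1 gene, COLCA1, fell 4-fold. The called shares of all tested genes were 2.95% higher, 1.01% lower, 1.27% higher by 2-fold or more and 0.334% lower by 2-fold or more. The 3 libraries of one group lay wholly above those of the other for every one of the 462 called genes, and for 18.6% of all tested genes. Without adjustment, 1739 genes had a p under 0.05. The median log2 fold change was -0.0023 over all genes tested, 0.90 over the higher and -0.72 over the lower. The median level of the 2-fold higher genes was 72.7 normalized reads in DMSO and 264.6 with TNFα. That of the 2-fold lower genes was 74.7 in DMSO and 36.0 with TNFα, beside 311.6 in DMSO over all genes tested. Of the 344 higher genes, 338 were protein coding. Nearest to the 2-fold line were IER5L, FOXO1 and SERPINB8 inside it, at 1.004, 1.011 and 1.024 on the log2 scale, and NFKBIB, C17orf49 and TAPBPL outside, the latter pair at 0.995 and 0.969. Nearest to the level of 10 normalized reads were SMG1P2 and FRG1HP inside, with means of 10.01 and 10.03, and FZD8 and KIF27 outside, with 9.983 and 9.974.

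**Figure D1:**
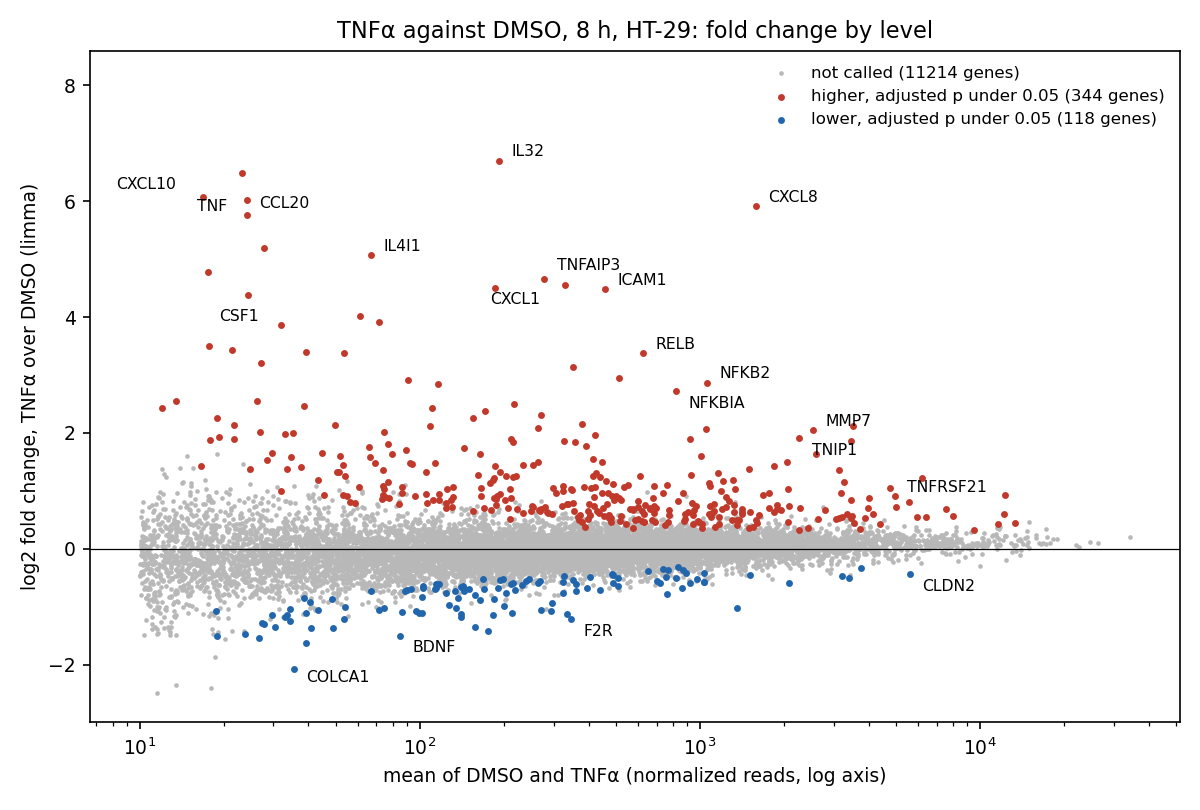
Each point is 1 of 11676 genes, at its mean over the DMSO and TNFα groups in normalized reads (log axis) and its log2 fold change from limma, with the 344 higher genes in red, the 118 lower in blue and the others in grey. The rises reach 6.70 for IL32, the falls -2.08 for COLCA1, and the fitted values of genes with hardly any DMSO reads, such as CXCL10, CCL20 and TNF, depend on the 0.5 reads added before the logarithm.

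Promoters of selected raised genes are shown first, since NF-κB acts on gene starts and the letters can be read beside the values that follow. Promoter sequences came from RefSeq (build GRCh38.p14), which gave a 300-base entry for 9330 of the 11676 tested genes. The 250 bases before the start were searched on both strands for a κB consensus. Its letters in order were G or T, GG, A or G, any base, A or T, C or T, C or T, CC. A T was thus allowed at the first base, as in the match of CXCL8, TGGAATTTCC. A match of these letters was held by 9.22% of the tested genes with an entry and by 8.57% of all 27305 promoters in the table. Among the higher genes it was 24.6% (66 of 268), among those higher by 2-fold or more 36.6% (41 of 112), by 4-fold or more 50% (20 of 40) and by 8-fold or more 65% (13 of 20). Among the lower genes it was 11.4% (9 of 79), and among those lower by 2-fold or more 7.41% (2 of 27). The median GC content of the 250 bases was 63.2% for the 2-fold higher genes and 65.2% for all tested. These shares are descriptions, and a match does not show that a factor binds there.

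The last 130 bases before the start are printed here 5′ to 3′ in the direction of transcription, with the bases of each match, or of overlapping matches, in capitals. Every gene printed holds a match, and the selection does not follow the ranking by rise. UBD, TNF, IL4I1 and ICAM1, with log2 fold changes of 6.49, 5.76, 5.07 and 4.49, are not printed, and TNF and IL4I1 have no match. The stretches are CXCL8 at chr4:73740439-73740568 on the plus strand, CXCL1 at chr4:73869263-73869392 on the plus strand, CXCL2 at chr4:74099196-74099325 on the minus strand, CXCL3 at chr4:74038690-74038819 on the minus strand, CXCL10 at chr4:76023498-76023627 on the minus strand, CCL20 at chr2:227813712-227813841 on the plus strand, IL32 at chr16:3065273-3065402 on the plus strand, LTB at chr6:31582426-31582555 on the minus strand, TNFAIP3 at chr6:137867129-137867258 on the plus strand, NFKBIA at chr14:35404750-35404879 on the minus strand, and TAP1 at chr6:32853705-32853834 on the minus strand.
CXCL8: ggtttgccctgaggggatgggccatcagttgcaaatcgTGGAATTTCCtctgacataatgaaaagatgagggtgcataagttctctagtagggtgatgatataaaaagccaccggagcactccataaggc
CXCL1: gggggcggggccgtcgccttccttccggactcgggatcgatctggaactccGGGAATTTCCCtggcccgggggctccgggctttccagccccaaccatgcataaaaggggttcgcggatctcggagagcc
CXCL2: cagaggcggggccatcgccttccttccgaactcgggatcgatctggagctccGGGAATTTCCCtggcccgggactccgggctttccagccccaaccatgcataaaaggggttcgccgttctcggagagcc
CXCL3: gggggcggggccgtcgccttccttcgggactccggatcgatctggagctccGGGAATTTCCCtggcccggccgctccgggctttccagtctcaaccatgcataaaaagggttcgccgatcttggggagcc
CXCL10: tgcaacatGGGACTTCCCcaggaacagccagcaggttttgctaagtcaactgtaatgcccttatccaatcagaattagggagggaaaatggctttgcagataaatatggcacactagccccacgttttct
CCL20: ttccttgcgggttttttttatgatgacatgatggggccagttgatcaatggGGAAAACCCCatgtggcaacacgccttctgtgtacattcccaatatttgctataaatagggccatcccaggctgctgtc
IL32: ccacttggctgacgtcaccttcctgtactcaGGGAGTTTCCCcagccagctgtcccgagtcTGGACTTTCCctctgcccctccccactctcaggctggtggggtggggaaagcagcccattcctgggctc
LTB: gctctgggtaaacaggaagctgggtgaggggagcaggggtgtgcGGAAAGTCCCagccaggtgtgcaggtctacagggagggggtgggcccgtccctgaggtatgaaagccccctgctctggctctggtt
TNFAIP3: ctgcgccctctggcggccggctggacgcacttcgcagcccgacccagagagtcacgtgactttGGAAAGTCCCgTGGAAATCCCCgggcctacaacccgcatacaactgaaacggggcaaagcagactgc
NFKBIA: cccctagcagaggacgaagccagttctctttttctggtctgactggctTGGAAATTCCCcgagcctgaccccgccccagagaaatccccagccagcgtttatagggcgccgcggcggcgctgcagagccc
TAP1: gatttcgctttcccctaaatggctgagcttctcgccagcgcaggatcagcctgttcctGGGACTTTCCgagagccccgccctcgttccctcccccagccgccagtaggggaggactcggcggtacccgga

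In the printed bases the neighbouring genes CXCL1, CXCL2 and CXCL3 carry the same capital letters, which begin 79, 78 and 79 bases before their starts. In CXCL8 the match begins 92 bases before the start, in CCL20 79, in NFKBIA 82, in TAP1 72 and in LTB 86. TNFAIP3 and IL32 hold a pair of separate stretches each, and CXCL10 and CXCL3 have a further one each, beginning 177 and 163 bases before the start, that the printed bases do not reach. Over the 41 genes with a match and a rise of 2-fold or more there were 55 stretches, and 24 of them were centred 50 to 100 bases before the start. In that window the 2-fold higher genes held 12.5 and 8.93 stretches per 100 promoters in its nearer and farther 25 bases, beside 0.89 and 1.06 for all tested genes. Of the genes that rose 8-fold or more, TNF, IL4I1, ITGAM, PSMB9, IL2RG, S100A3 and CD83 had no match in these bases, and C3, CSF1, PI3 and RELB have no entry.

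**Figure D2:**
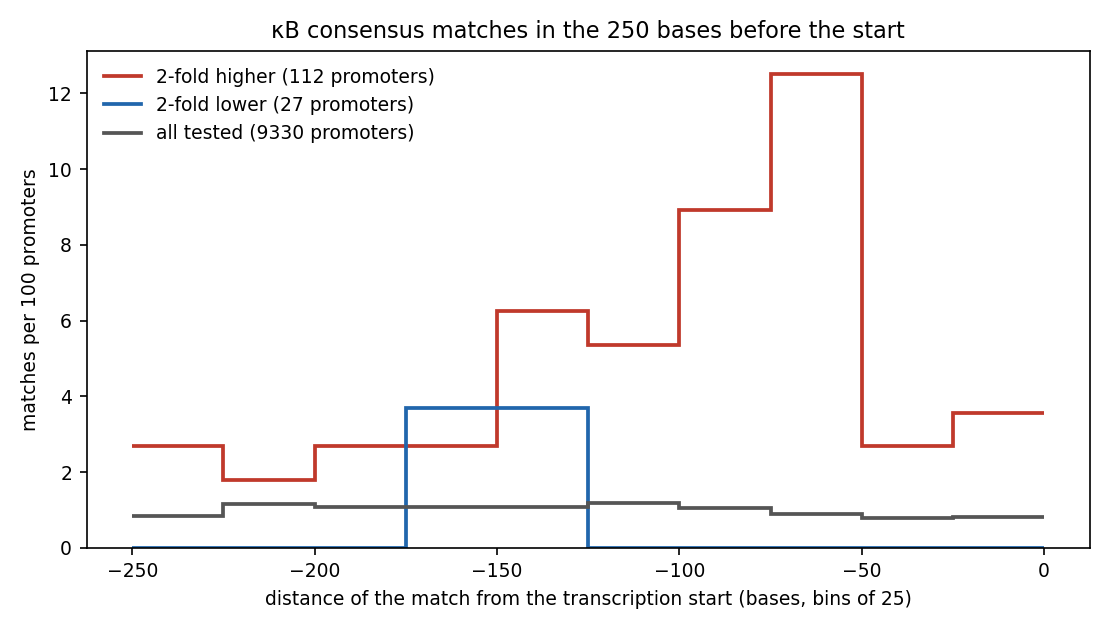
The horizontal axis is the distance from the transcription start in bins of 25 bases and the vertical axis the κB consensus stretches per 100 promoters, for 112 promoters of genes higher by 2-fold or more (red), 27 of genes lower by 2-fold or more (blue) and 9330 of all tested genes (grey). The red line is highest, at 12.5, in the bin 50 to 75 bases before the start, where the grey line is at 0.89.

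Chemokines, the secreted proteins that direct leukocyte migration, made up the list with the highest median. Of 22, 10 were at the level, 8 of them were higher and none lower, and the median log2 fold change of the 10 was 3.62. It was -0.0023 over all tested genes. CXCL2, CXCL3, CXCL10, CX3CL1 and CCL20 had DMSO means under 10 and reached the level only through TNFα, so count and median lean towards rises. CXCL8, the neutrophil attractant interleukin 8, was at 45.02, 75.7 and 39.5 normalized reads in DMSO and at 3369, 2995 and 2958 with TNFα. The lowest TNFα library was far above the highest DMSO library, a rise of 5.91 ± 0.21 on the log2 scale (SE, adjusted p = 1.02e-08). CXCL1, which acts on the same receptor CXCR2, was at 27.01, 24.2 and 27.8 normalized reads in DMSO and at 571, 672 and 654 with TNFα, a rise of 4.56 ± 0.18 on the log2 scale (SE, adjusted p = 1.59e-08). CXCL3 was at 8.1, 9.46 and 3.21 normalized reads in DMSO and at 82.2, 142 and 121 with TNFα, and CXCL2 was at 6.3, 3.15 and 5.34 normalized reads in DMSO and at 40.2, 49.1 and 59.05 with TNFα. As in every called gene, the groups did not overlap for either, with log2 fold changes of 4.03 and 3.21 (adjusted p = 5.80e-05 and 6.67e-05). The 3 genes are close copies, and reads that fit more than one of them could have been split or dropped in counting.

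Of the chemokines for other leukocytes, CCL20 and CXCL10 had at most 1 read in DMSO. CCL20, the ligand of CCR6 on dendritic cells and lymphocytes, had 1 read over the 3 DMSO libraries and 149 over the 3 with TNFα, at 62.6, 35.6 and 45.04 normalized reads, a ratio of 144 with an exact 95% interval from counting alone of 25.4 to 5.71e+03. CXCL10, which attracts T cells through CXCR3, had no read in DMSO and was at 38.3, 26.9 and 36.03 normalized reads with TNFα, at least 33.8-fold higher against a floor of 3 reads over the group. Both were called (adjusted p = 6.47e-06 and 2.00e-06), and the median of the list stayed at 3.62 with CXCL10 at its bound. CXCL16 was at 229, 213 and 256 normalized reads in DMSO and at 637, 654 and 688 with TNFα, a rise of 1.504 ± 0.13 on the log2 scale (SE, adjusted p = 8.24e-06). CX3CL1, the membrane-bound fractalkine, was at 5.4, 5.25 and 7.48 normalized reads in DMSO and at 32.7, 42.3 and 20.02 with TNFα, a rise of 2.26 ± 0.37 on the log2 scale (SE, adjusted p = 0.0024). The 2 chemokines at the level that were not called were CXCL17 (log2 fold change 0.68, adjusted p = 0.39) and CCL28 (-0.10, adjusted p = 0.91). Under every alternative that kept the list whole, 8 of the 10 were higher.

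Among 16 cytokines and growth factors at the level, 10 were higher and none lower, with a median log2 fold change of 0.75. TNF, IL23A, IL32, CSF1 and LTB had DMSO means under 10 and reached the level only through TNFα. IL32, an inflammatory cytokine of epithelial and immune cells, was at 1.8, 5.25 and 3.21 normalized reads in DMSO and at 358, 419 and 366 with TNFα, a rise of 6.70 ± 0.37 on the log2 scale (SE, adjusted p = 2.26e-07). TNF itself had 2 reads over the DMSO libraries and 147 over the TNFα libraries, at 34.6, 46.2 and 62.05 normalized reads, a ratio of 70.9 with an exact 95% interval of 19.3 to 591. LTB, the lymphotoxin β subunit, was at 1.8, 0 and 2.14 normalized reads in DMSO and at 43.9, 63.5 and 55.05 with TNFα, a rise of 5.20 ± 0.52 on the log2 scale (SE, adjusted p = 4.82e-05). These 3 genes thus rose from at most 5.25 normalized reads in any DMSO library. CSF1, the macrophage growth factor, was at 3.6, 3.15 and 4.28 normalized reads in DMSO and at 67.3, 52.9 and 61.05 with TNFα, a rise of 3.87 ± 0.38 on the log2 scale (SE, adjusted p = 3.85e-05). IL23A, the p19 subunit of interleukin 23, was at 0, 4.2 and 4.28 normalized reads in DMSO and at 33.6, 57.7 and 46.04 with TNFα, a rise of 4.38 ± 0.63 on the log2 scale (SE, adjusted p = 0.001). PDGFB, LIF and HBEGF rose from levels already well above the limit, with log2 fold changes of 1.86, 0.96 and 0.79. The EGF receptor ligands AREG and TGFA rose by 0.50 and 0.37, with adjusted p-values of 0.037 and 0.046 that lie near the limit. VEGFA, EREG, BMP2, IL15, IL18 and PDGFA were not called (log2 fold changes -0.72 to 0.71).

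Members of the NF-κB system were among the raised genes. All 16 subunits, IκB proteins and kinases of the list were at the level, 9 were higher and none lower, and the median log2 fold change was 0.75. Of the subunits, RELB was at 119.8, 77.8 and 139 normalized reads in DMSO and at 990.4, 1285 and 1151 with TNFα, a rise of 3.37 ± 0.22 on the log2 scale (SE, adjusted p = 1.20e-06). NFKB2, the precursor p100 of the p52 partner of RELB, was at 259, 223 and 282 normalized reads in DMSO and at 1730, 1961 and 1891 with TNFα, a rise of 2.87 ± 0.13 on the log2 scale (SE, adjusted p = 3.84e-08). The 3 TNFα libraries of either gene stood above all DMSO libraries, as in every gene called higher. NFKB1, the p105 precursor of p50, was at 869.8, 798 and 957 normalized reads in DMSO and at 1666, 1819 and 1876 with TNFα, a rise of 1.03 (adjusted p = 2.10e-05). RELA, the p65 subunit, was at 1313, 1024 and 1428 normalized reads in DMSO and at 1561, 1734 and 1691 with TNFα. Its groups did not overlap, which held for 18.6% of all tested genes. The log2 fold change of 0.42 was not called (standard error 0.13, adjusted p = 0.12), and with the GC trend removed or library quality weights it was. REL was also not called, at 0.34 (adjusted p = 0.73).

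NFKBIA, NFKBIE and NFKBIB, inhibitors of NF-κB, rose as did its subunits RELB, NFKB2 and NFKB1. NFKBIA, which encodes IκBα, was at 252, 185 and 214 normalized reads in DMSO and at 1393, 1477 and 1417 with TNFα, a rise of 2.72 ± 0.13 on the log2 scale (SE, adjusted p = 5.77e-08). NFKBIE, encoding IκBε, was at 114, 105 and 135 normalized reads in DMSO and at 797, 1004 and 929.8 with TNFα, a rise of 2.94 ± 0.17 on the log2 scale (SE, adjusted p = 3.11e-07). NFKBIB, encoding IκBβ, was at 817, 655 and 921 normalized reads in DMSO and at 1431, 1734 and 1583 with TNFα, a rise of 0.998 ± 0.14 on the log2 scale (SE, adjusted p = 7.44e-04). All 3 inhibitors, like every gene called higher, had TNFα libraries wholly above the DMSO libraries. BCL3 and NFKBIZ, nuclear IκB proteins that act with p50 and p52, rose by 1.49 and 0.56, and IKBKE, the kinase IKKε, by 0.94. The kinases of the canonical complex were not called: IKBKB had a log2 fold change of 0.12, CHUK -0.24 and the scaffold IKBKG 0.07. Under the alternatives that kept the list whole, 7 to 10 of the 16 were higher and none lower.

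Of 30 ubiquitin enzymes and adaptors of TNF signalling at the level, 6 were higher and none lower, and the median log2 fold change was 0.17. TNFAIP3, the ubiquitin-editing enzyme A20 that dampens NF-κB, was at 24.3, 22.1 and 16.03 normalized reads in DMSO and at 556, 497 and 556 with TNFα, a rise of 4.66 ± 0.20 on the log2 scale (SE, adjusted p = 3.01e-08). Its partner TNIP1 was at 1048, 758 and 1071 normalized reads in DMSO and at 3354, 3749 and 3603 with TNFα, a rise of 1.91 ± 0.13 on the log2 scale (SE, adjusted p = 1.48e-06). BIRC3, the IAP protein cIAP2, was at 45.9, 138 and 56.6 normalized reads in DMSO and at 732, 568 and 580.5 with TNFα, a rise of 3.14 ± 0.37 on the log2 scale (SE, adjusted p = 1.65e-04). DMSO library b was the highest of its group for BIRC3, and the lowest TNFα library was at 567.8 against its 137.7. TRAF3, which holds the kinase NIK in check, the ribonuclease ZC3H12A and NUAK2 rose by 0.73, 1.07 and 0.92. The other 24, among them BIRC2, CYLD, OTULIN, RNF31, RBCK1, SHARPIN, TRAF2 and MAP3K7, were not called, with BIRC2 at 0.16 and TRAF2 at 0.43.

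**Figure D3:**
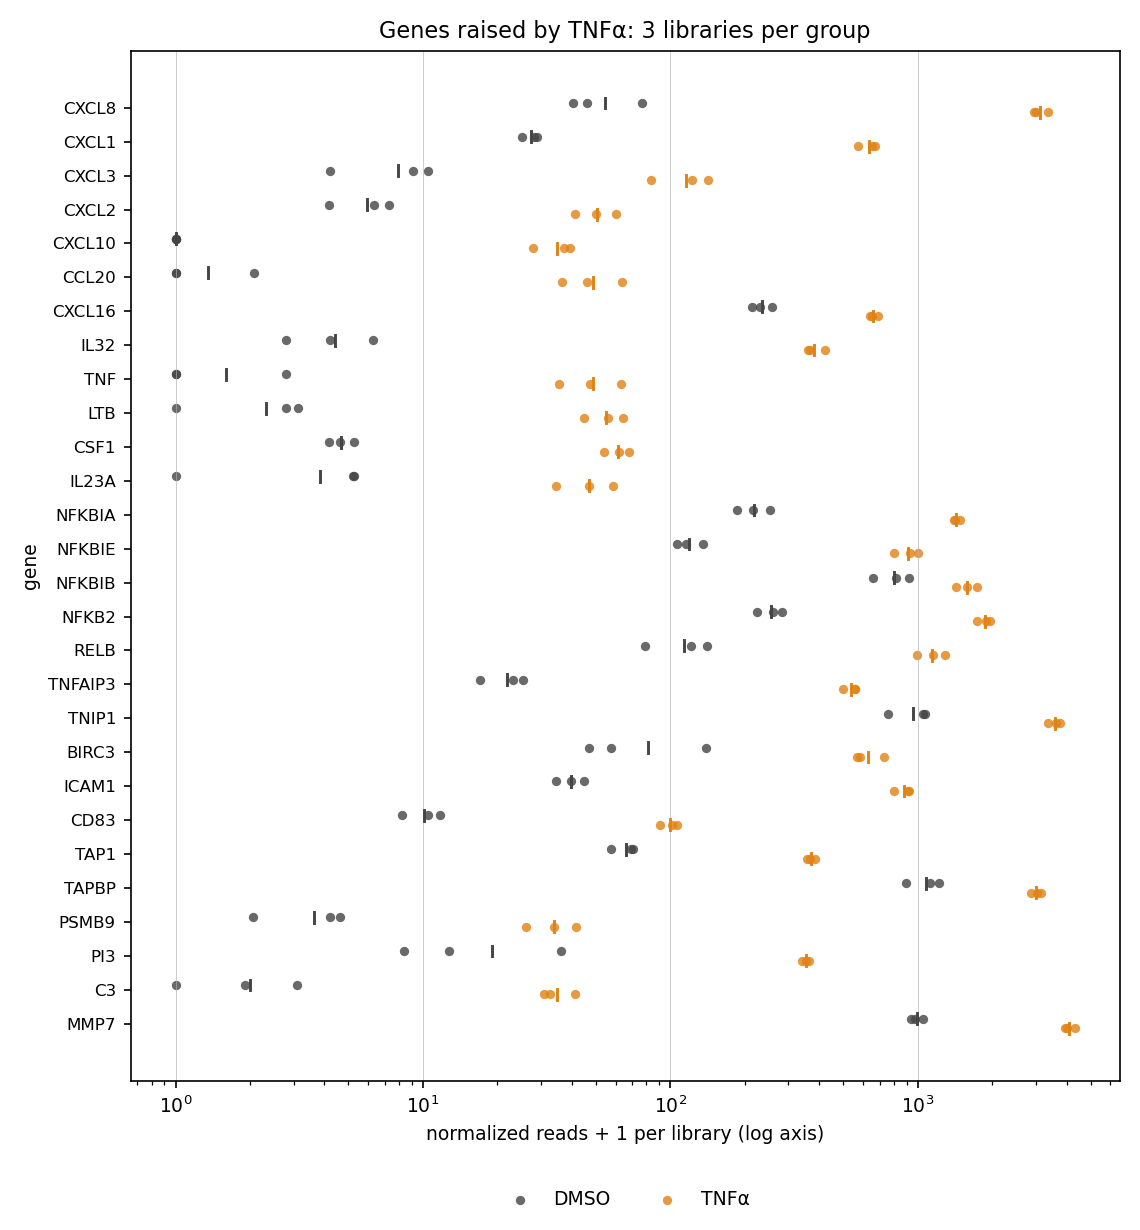
For 28 genes that TNFα raised, the points give normalized reads plus 1 in each of the 3 DMSO (grey) and 3 TNFα (orange) libraries on a log axis, and the vertical marks give the group means. In each of them, as in every gene called higher, the orange points lie to the right of all grey points. They range from CXCL10, at 0 in DMSO, to MMP7, at 988.5 in DMSO and 4088 with TNFα.

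Receptors and death signalling moved less, with a minority of each list called, beside 2.95% higher over all tested genes. Of 13 members of the TNF superfamily and its receptors at the level, 4 were higher: TNFRSF21, the death receptor DR6, at 3533, 3479 and 3320 normalized reads in DMSO and at 6342, 6236 and 6821 with TNFα (0.91 on the log2 scale, adjusted p = 1.32e-05), TNFRSF10B, the TRAIL receptor DR5 (0.96), TNFRSF14 (0.70) and RELT (0.59). The count was 2 without DMSO library a or TNFα library b or c and with only the 6 libraries in the fit, 6 without DMSO library c, and 7 with library quality weights. TNFRSF1A, the receptor TNFR1, was at 1081, 827 and 1138 normalized reads in DMSO and at 1309, 1586 and 1484 with TNFα. Its groups did not overlap, as for 18.6% of all tested genes, and with a log2 fold change of 0.53 it stood just past the limit (adjusted p = 0.0504). Of 14 components of the death receptor complex and necroptosis, 2 were higher: CFLAR, the caspase-8 inhibitor cFLIP (0.65, adjusted p = 8.16e-04), and RIPK2 (0.54, adjusted p = 0.016), the latter under 11 of 16 alternatives and not without DMSO library a or TNFα library a or b. RIPK1 was at 539, 512 and 500.2 normalized reads in DMSO and at 537, 589.9 and 588 with TNFα, a difference of 0.14 ± 0.11 on the log2 scale (SE, adjusted p = 0.62). RIPK3 was at 98.1, 74.6 and 105 normalized reads in DMSO and at 83.2, 93.3 and 107 with TNFα. The RIPK3 groups overlapped, at 0.03 ± 0.17 on the log2 scale (SE, adjusted p = 0.95), a value that was below 0 under some alternatives. MLKL, the pore-forming effector, was at 382 ± 39.1 in DMSO and 423 ± 10.7 with TNFα (SD, n = 3 each) and was not called at 0.15 on the log2 scale (adjusted p = 0.64). MAPK14, the kinase p38α, was also not called (-0.24, adjusted p = 0.295). In the BCL2 family BID was the 1 of 13 called (0.42, adjusted p = 0.038), under 9 of 16 alternatives and not without DMSO library a or b or TNFα library b or c, while BIK (1.6, adjusted p = 0.059) and MCL1 (0.50, adjusted p = 0.13) were not. Under the alternatives that kept the BCL2 list whole, 0 to 6 were higher, 6 with library quality weights.

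Most genes of antigen presentation by MHC class I were raised. Of 20 members at the level, 13 were higher and none lower, all 20 had a log2 fold change above 0 (17 to 20 under the alternatives), and the median was 0.71. TAP1, a subunit of the peptide transporter, was at 68.4, 56.8 and 69.5 normalized reads in DMSO and at 354, 384 and 366 with TNFα, a rise of 2.50 ± 0.16 on the log2 scale (SE, adjusted p = 1.23e-06). Its partner TAP2 rose by 0.82, and TAPBP, the tapasin that loads peptides, was at 1114, 892 and 1217 normalized reads in DMSO and at 2857, 3023 and 3143 with TNFα, a rise of 1.495 ± 0.13 on the log2 scale (SE, adjusted p = 9.59e-06). PSMB9, a subunit of the immunoproteasome, was at 3.6, 1.05 and 3.21 normalized reads in DMSO and at 32.7, 40.4 and 25.02 with TNFα, a rise of 3.50 ± 0.50 on the log2 scale (SE, adjusted p = 8.90e-04). PSMB8 rose by 1.03 and PSMB10 by 0.69. TAP1 and PSMB9 start next to each other on opposite strands and their annotated models overlap, and since the authors counted without strand, reads in the overlap could not be told apart. Of the heavy chains, HLA-E was at 887, 695 and 904 normalized reads in DMSO and at 1282, 1548 and 1410 with TNFα, with a log2 fold change of 0.77. HLA-B and HLA-C rose by 0.72 and 0.64, HLA-F was not called (1.08, adjusted p = 0.096), and B2M, the light chain, was not called (0.32, adjusted p = 0.11). The HLA genes are near copies of each other, so reads could have been shared among them. The number of higher members fell to 6 with only the 6 libraries of the comparison in the fit, to 7 without TNFα library b, to 7 without library c, and rose to 16 with the GC trend removed.

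Most genes of innate defence at the level were raised, and some of adhesion and matrix. Of 37 defence and acute phase genes 14 were at the level, and 9 of these were higher and none lower, with a median of 0.81. C3 and PIGR had DMSO means under 10 and reached the level only through TNFα. The higher count was 6 with only the 6 libraries in the fit and without TNFα library c. PI3, the elastase inhibitor elafin, was at 35.1, 7.36 and 11.8 normalized reads in DMSO and at 351, 364 and 339 with TNFα, a rise of 4.50 ± 0.36 on the log2 scale (SE, adjusted p = 6.11e-06). C3, the central complement protein, had 3 reads over the DMSO libraries and 105 with TNFα, a ratio of 33.8 with an exact 95% interval of 11.2 to 166. CFB, of the alternative complement pathway, was at 18.9, 13.7 and 22.4 normalized reads in DMSO and at 74.8, 82.8 and 85.1 with TNFα, a rise of 2.13 ± 0.24 on the log2 scale (SE, adjusted p = 1.32e-04), and its model overlaps that of C2. SERPINA3, PIGR, SOD2, SERPINA1, PLAUR and LCN2 rose by 2.01, 1.89, 0.71, 0.68, 0.66 and 0.65. In the adhesion and matrix list 7 of 18 were higher and none lower, with a median of 0.46. Under the alternatives that kept this list whole, 6 to 13 were higher and 0 to 2 lower. ICAM1, which leukocyte integrins bind, stood at 38.7, 33.6 and 43.8 normalized reads in DMSO and at 804, 917 and 909.8 with TNFα, a rise of 4.49 ± 0.19 on the log2 scale (SE, adjusted p = 1.95e-08). MMP7, matrilysin, was at 977, 1048 and 941 normalized reads in DMSO and at 4306, 4013 and 3944 with TNFα, a rise of 2.05 ± 0.10 on the log2 scale (SE, adjusted p = 4.29e-08). CD83 was at 7.2, 9.46 and 10.7 normalized reads in DMSO and at 89.7, 105 and 100.1 with TNFα, a rise of 3.38 ± 0.28 on the log2 scale (SE, adjusted p = 8.12e-06). The laminin chains LAMB3 and LAMA3 rose by 0.96 and 0.91.

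In the list of AP-1 and immediate early genes 10 of 26 were higher, 1 was lower and 15 were not called, with a median of 0.51. The higher count was 5 without DMSO library a or TNFα library c and with only the 6 libraries in the fit, and 17 with library quality weights. IER3, a survival gene, was at 1023, 831 and 1165 normalized reads in DMSO and at 2509, 2800 and 2727 with TNFα, a rise of 1.42 ± 0.12 on the log2 scale (SE, adjusted p = 6.80e-06). JUNB was at 661, 564 and 786 normalized reads in DMSO and at 1432, 1768 and 1729 with TNFα, a rise of 1.30 ± 0.17 on the log2 scale (SE, adjusted p = 3.65e-04). The AP-1 partners FOSL1, MAFF and JUND rose by 1.17, 1.23 and 0.82, and MYC by 0.42, while FOS (0.14, adjusted p = 0.75), JUN (0.53, adjusted p = 0.079) and ATF3 (0.71, adjusted p = 0.22) were not called. ID2 was the member that fell, by 0.53 on the log2 scale (adjusted p = 0.02), called under 10 of 16 alternatives. Among 19 MAPK phosphatases, feedback inhibitors and kinases 5 were higher and none lower, led by the phosphatases DUSP5 (1.33), DUSP16 (1.10) and DUSP1 (1.07). The count was 2 without TNFα library c and with only the 6 libraries in the fit, 3 without DMSO library a or TNFα library b, and 8, with 2 lower, with library quality weights, and DUSP1 was called under 10 of 16 alternatives.

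Higher members were a minority of both interferon lists, though a larger share than the 2.95% of all tested genes. The receptor chains IFNGR1, IFNGR2 and IFNAR2, in neither list, were also higher. Of 20 IRF, STAT and related factors 3 were higher, IRF1 at 498, 414 and 533 normalized reads in DMSO and at 825, 889 and 915 with TNFα (0.87 on the log2 scale), STAT5A (1.998) and JAK1 (0.45, adjusted p = 0.047), which was called under 6 of 16 alternatives. Of 34 interferon-stimulated genes 5 were higher and none lower, with a median of 0.44. OAS3 was at 779, 797 and 813 normalized reads in DMSO and at 1754, 1700 and 2034 with TNFα, a rise of 1.20 ± 0.10 on the log2 scale (SE, adjusted p = 9.66e-06). GBP1 was at 13.5, 13.7 and 10.7 normalized reads in DMSO and at 71.01, 33.7 and 55.05 with TNFα, a rise of 1.98 ± 0.33 on the log2 scale (SE, adjusted p = 0.0029), and IFIH1, PARP14 and SP100 rose by 1.07, 0.75 and 0.46. ISG15, IFIT1, IFIT2, OAS1 and BST2 were not called, with log2 fold changes of 0.08, -0.19, -0.0037, 0.05 and -0.07. The count of higher interferon-stimulated genes ran from 3 to 17 over the alternatives, 17 with the GC trend removed and 3 without DMSO library a or TNFα library b or c.

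A minority of each list of enzymes and stress genes was called, beside 2.95% higher and 1.01% lower over all tested genes. PTGS2, the inducible cyclooxygenase COX-2, was at 19.8, 64.1 and 31 normalized reads in DMSO and at 207, 162 and 181 with TNFα, a rise of 2.43 ± 0.30 on the log2 scale (SE, adjusted p = 2.91e-04). ASS1, argininosuccinate synthase, was at 61.2, 42.04 and 63.1 normalized reads in DMSO and at 273, 295 and 288 with TNFα, a rise of 2.37 ± 0.20 on the log2 scale (SE, adjusted p = 8.24e-06). MT2A, a metallothionein, rose by 0.78, GPX2 by 0.61 and GCH1 by 0.61, whereas SLC40A1, the iron exporter ferroportin, fell from 404 ± 142 to 185 ± 24.9 normalized reads (SD, n = 3 each), or -1.08 on the log2 scale (adjusted p = 0.0092). In that list of 22 prostaglandin, redox and metabolic genes 5 were higher and 1 was lower, with a median of 0.23. The counts were 3 higher without TNFα library b or c, 8 without DMSO library b, 2 higher and none lower with only the 6 libraries in the fit, and 11 higher and 3 lower with library quality weights. CDKN1A, the CDK inhibitor p21, was at 102, 83.04 and 119 normalized reads in DMSO and at 417, 427 and 433 with TNFα, a rise of 2.08 ± 0.17 on the log2 scale (SE, adjusted p = 7.26e-06). It was 1 of 3 higher among 17 p53 targets, with PLK3 (1.05) and PLK2 (0.69), while MDM2 (-0.16), SESN1 (-0.70) and GADD45A (-0.12) were not called. In the ATF4-CHOP list 4 of 17 were higher, CEBPD (1.28), PPP1R15A (1.10), CEBPB (1.07) and ATF5 (0.72), and ATF4 (0.07), DDIT3 (0.09), TRIB3 (-0.16), ASNS (-0.13) and CHAC1 (-0.15) were not called. HSPA5 and XBP1 were the 2 of 25 chaperone and unfolded protein response genes called higher, at 0.33 each, and both were called under only 7 of 16 alternatives. None of that list was higher without DMSO library a or any one TNFα library, with only the 6 libraries in the fit, or scaled to total reads or the 75th percentile.

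Proliferation genes had medians below 0 and few calls, beside 1.01% lower over all tested genes. In DNA replication 2 of 31 were lower and none higher, with a median of -0.09 and 5 members above 0. GINS1, a subunit of the replicative helicase, was at 756, 739 and 722 normalized reads in DMSO and at 579, 538 and 574 with TNFα, a log2 fold change of -0.39 (adjusted p = 0.016) that was called under 10 of 16 alternatives. None of 30 mitosis genes was called either way, with a median of -0.20 and 4 above 0, and MKI67 (-0.15, adjusted p = 0.43) and TOP2A (-0.42, adjusted p = 0.42) were among them. Over the alternatives the replication genes had 0 to 11 lower, none without DMSO library a or TNFα library b and 11 with library quality weights, and the mitosis genes 0 to 5. None of 23 housekeeping genes, 40 cytosolic ribosomal protein genes and 26 glycolysis and hypoxia genes was called, with medians of 0.09, 0.17 and 0.07. The ribosomal median moved to 0.02 without DMSO library b and to 0.28 without DMSO library c.

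Intestinal genes were called in either direction, a minority of each list, beside 2.95% higher and 1.01% lower over all tested genes. Of 28 differentiation and transport genes 4 were higher and 1 lower, with a median of 0.01. Under the alternatives that kept the list whole, 3 to 5 were higher and 0 to 8 lower, 8 with library quality weights. None was lower with only the 6 libraries in the fit. MUC17 had a DMSO mean under 10 and reached the level only through TNFα. MUC5AC, a gel-forming mucin, was at 475, 514 and 517 normalized reads in DMSO and at 1539, 1379 and 1641 with TNFα, a rise of 1.59 ± 0.12 on the log2 scale (SE, adjusted p = 4.30e-06). MUC2, the main mucin of goblet cells, was at 15.3, 10.5 and 8.55 normalized reads in DMSO and at 79.4, 51.01 and 67.1 with TNFα, a rise of 2.47 ± 0.32 on the log2 scale (SE, adjusted p = 3.92e-04), and the membrane mucin MUC17 rose by 2.42 from 4.01 ± 3.16 normalized reads (SD, n = 3). KRT20, a keratin of differentiated colonocytes, was at 1421, 1438 and 1354 normalized reads in DMSO and at 2368, 2373 and 2375 with TNFα, a rise of 0.76 ± 0.07 on the log2 scale (SE, adjusted p = 3.76e-05). VIL1, the microvillus protein villin, was at 1100, 992 and 1224 normalized reads in DMSO and at 693, 781 and 724 with TNFα, a change of -0.59 ± 0.11 on the log2 scale (SE, adjusted p = 0.0058). KRT20 rose while VIL1 fell, and HNF4A (-0.21), GATA6 (0.17) and CFTR (-0.57, adjusted p = 0.08) were not called. In the WNT and stem cell list MYB and EPHB3 fell by 0.71 and 0.86 on the log2 scale and SOX4 rose by 0.49, whereas LGR5 (-0.56, adjusted p = 0.36), ASCL2 (-0.82, adjusted p = 0.23) and AXIN2 (-0.16, adjusted p = 0.50) were not called. MYB was called under 14 of 16 alternatives, EPHB3 under 10 and SOX4 under 7, and none of the list was called with only the 6 libraries in the fit. Of 18 tight junction genes the claudin CLDN1 rose, from 267, 372 and 253 to 603, 519 and 506, by 0.89 (adjusted p = 0.016). The pore-forming claudin CLDN2 fell, from 6802, 5567 and 7059 to 4411, 4698 and 5151, with a log2 fold change of -0.44 (adjusted p = 0.035). CLDN1 was called under 12 of 16 alternatives and CLDN2 under 8, neither without DMSO library a or c or TNFα library a, and CLDN2 also not without TNFα library b or c. OCLN, TJP1 and CDH1 were not called (-0.08, 0.06 and -0.04).

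**Figure D4:**
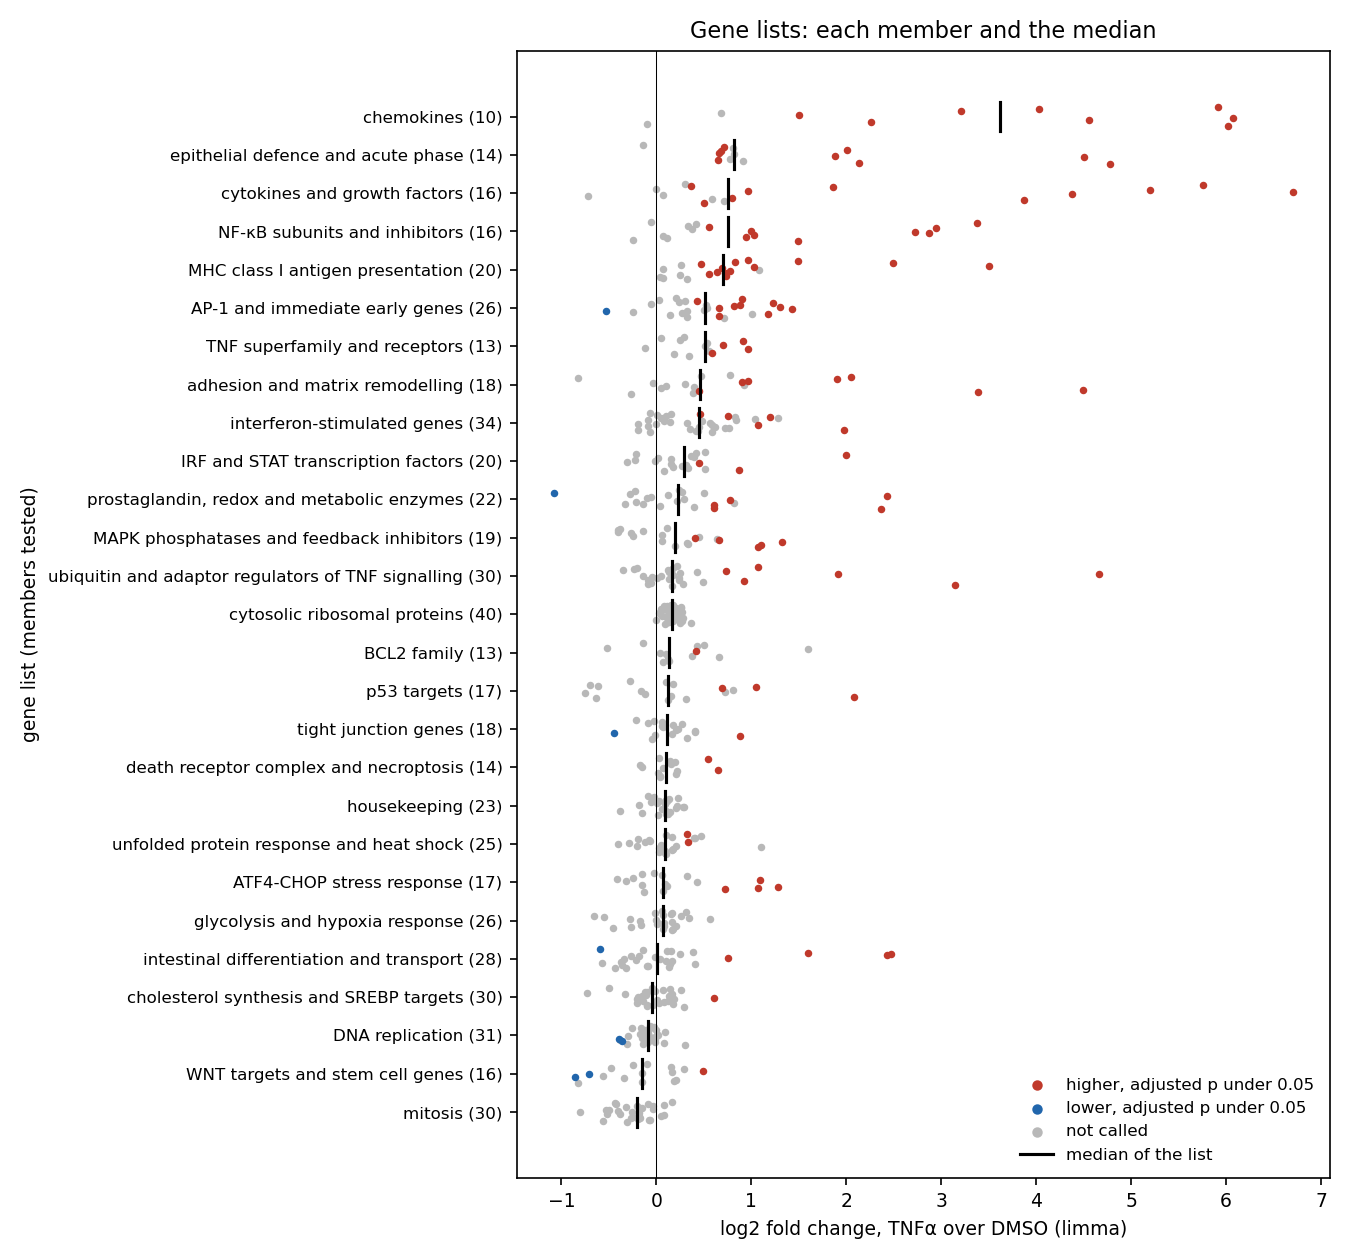
Each row is a gene list other than the cell type markers, with its number of tested members, each point a member's log2 fold change from limma (red higher, blue lower, grey not called), and the black mark the median. Chemokines stand at the top with a median of 3.62, which includes members that reached the level only through TNFα, and mitosis at the bottom with -0.20.

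The genes TNFα lowered changed by less than those it raised, and no list held more than a few of them: of the 118, 8 were members of any list. COLCA1, a transcript named for a colorectal cancer locus, was at 67.5, 62.01 and 43.8 normalized reads in DMSO and at 14.02, 12.5 and 13.01 with TNFα, a change of -2.08 ± 0.27 on the log2 scale (SE, adjusted p = 3.92e-04), and its model overlaps POU2AF3 on the opposite strand. SPINK5, a serine protease inhibitor of epithelia, was at 49.5, 63.1 and 66.3 normalized reads in DMSO and at 16.8, 15.4 and 25.02 with TNFα, a change of -1.64 ± 0.26 on the log2 scale (SE, adjusted p = 0.0022). BDNF, a neurotrophin, was at 119, 145 and 112 normalized reads in DMSO and at 38.3, 48.1 and 45.04 with TNFα, a change of -1.50 ± 0.19 on the log2 scale (SE, adjusted p = 3.42e-04). All TNFα libraries lay below all DMSO libraries for the 3 genes, as for every gene called lower. F2R, the thrombin receptor PAR1, was at 434, 562 and 464 normalized reads in DMSO and at 211, 192 and 219 with TNFα, a change of -1.22 ± 0.14 on the log2 scale (SE, adjusted p = 1.38e-04). TNS1, the focal adhesion protein tensin 1, was at 266, 249 and 239 normalized reads in DMSO and at 64.5, 96.2 and 134 with TNFα, a change of -1.42 ± 0.20 on the log2 scale (SE, adjusted p = 8.02e-04). PLD1, a phospholipase D, was at 222, 281 and 174 normalized reads in DMSO and at 114, 75.1 and 75.1 with TNFα, a change of -1.35 ± 0.21 on the log2 scale (SE, adjusted p = 0.002). In F2R, TNS1 and PLD1, as in every gene called lower, the highest TNFα library was below the lowest DMSO library. PPFIBP2, liprin β2, was at 259, 245 and 244 normalized reads in DMSO and at 89.7, 121 and 132 with TNFα, a change of -1.15 ± 0.17 on the log2 scale (SE, adjusted p = 0.0011), and its TNFα libraries differed among themselves more than its DMSO libraries.

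FGF9, a fibroblast growth factor, was at 63.9, 98.8 and 51.3 normalized reads in DMSO and at 25.2, 27.9 and 26.02 with TNFα, a log2 fold change of -1.36 (adjusted p = 0.027). KHK, the ketohexokinase of fructose metabolism, was at 47.7, 39.9 and 57.7 normalized reads in DMSO and at 16.8, 18.3 and 26.02 with TNFα, a log2 fold change of -1.24 (adjusted p = 0.0068). RAB26, a small GTPase of secretory vesicles, was at 46.8, 45.2 and 45.96 normalized reads in DMSO and at 21.5, 22.1 and 17.01 with TNFα, a log2 fold change of -1.18 (adjusted p = 0.0076). For all 3 the groups were apart, as in every called gene, with every library under 100 normalized reads. The models of KHK, LNX1 and HERC3 overlap CGREF1, FIP1L1 and NAP1L5 on the opposite strand. NAALADL2, DIXDC1, LNX1, PRR15L and HERC3 complete the 15 largest falls, with log2 fold changes of -1.37, -1.35, -1.22, -1.19 and -1.14. FGF9 and HERC3 were called under 8 of 15 alternatives, LNX1 under 11 of 16, and COLCA1, SPINK5, BDNF, F2R, TNS1, PLD1 and PPFIBP2 under all that could include them. Of the 118 lower genes 18 were called under every alternative that could include them, beside 185 of the 344 higher ones. The extracellular enzymes LOXL1 and ADAMTS6 and the gap junction protein GJB1, nearest to the 2-fold line with CACNG4, CLEC3A and DEGS2, had log2 fold changes of -1.02, -0.99 and -0.94. The fibroblast and endothelial markers summed to 145, 217.6 and 57.7 normalized reads in DMSO a, b and c. The same order, b over a over c, held in DMSO for BDNF, FGF9, PLD1, DIXDC1 and HERC3 among the 15 largest falls and not for the other 10, and the part of such cells in these falls was not tested. DMSO a, b and c also differed in how levels followed GC content, with a Spearman's rho of 0.53, -0.79 and 0.77. Its part in this order was not tested either.

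**Figure D5:**
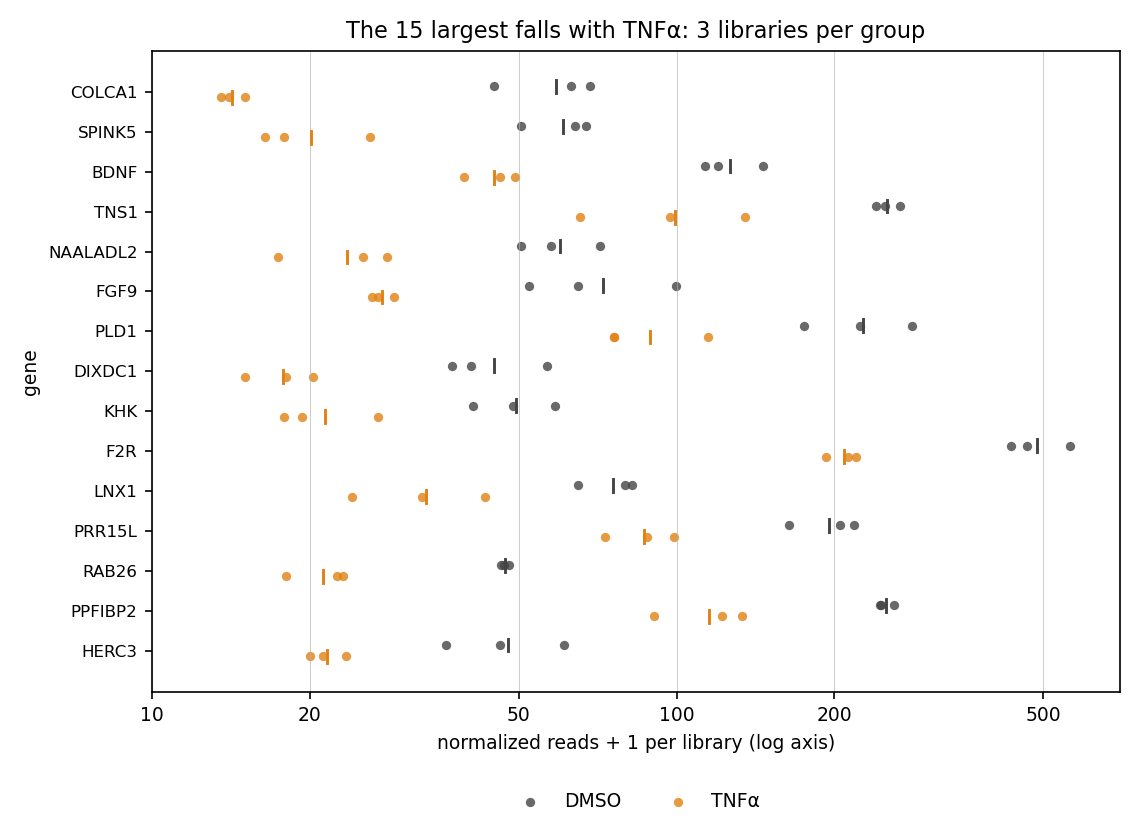
For the 15 largest falls, the points give normalized reads plus 1 in each of the 3 DMSO (grey) and 3 TNFα (orange) libraries on a log axis, and the vertical marks the group means. The orange points lie to the left of the grey ones in every row, as in every gene called lower. They are closest for TNFα library a of LNX1, at 42.05, and DMSO library a, at 63.9.

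Some raised genes lie side by side in the genome (hg38, GENCODE v44). On chromosome 4, from 73571550 to 74099196, 5 higher genes follow each other with gaps of at most 250 kb, RASSF6, CXCL8, CXCL1, CXCL3 and CXCL2. In the MHC on chromosome 6 such runs were HLA-E, IER3 and DDR1, then HLA-C, HLA-B, TNF and LTB, and from 32821833 to 32859851 TAP2, PSMB8, PSMB9 and TAP1. On chromosome 19 CEACAM19, BCL3 and RELB formed a run from 44662278 to 45038192, and RRAS, TBC1D17, IL4I1 and ATF5 another. IL4I1, an oxidase that degrades aromatic amino acids, was at 1.8, 3.15 and 6.41 normalized reads in DMSO and at 117, 126 and 146 with TNFα, a rise of 5.07 ± 0.41 on the log2 scale (SE, adjusted p = 6.80e-06), but its model overlaps NUP62 and ATF5 and reads could not be assigned by strand. On chromosome 20 PI3, SDC4 and WFDC2 were neighbours.

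Other members of the 20 largest rises came from no pathway list. ITGAM, the integrin αM chain known from myeloid cells, was at 9.004, 14.7 and 4.28 normalized reads in DMSO and at 117, 149 and 135 with TNFα, a rise of 3.91 ± 0.39 on the log2 scale (SE, adjusted p = 3.92e-05), while 7 of the 12 leukocyte markers had no reads in any of the 6 libraries. LYZ, at 14920 in DMSO and 15020 with TNFα, and CD68, at 154.3 and 173.6, were other markers of that list present in DMSO, and neither was called, nor was CD14 (-0.72, adjusted p = 0.079). DIO3, which inactivates thyroid hormone, was at 24.3, 17.9 and 20.3 normalized reads in DMSO and at 171, 171 and 141 with TNFα, a rise of 2.92 ± 0.21 on the log2 scale (SE, adjusted p = 2.71e-06). SEMA7A, a membrane-anchored semaphorin, was at 28.8, 22.1 and 34.2 normalized reads in DMSO and at 186, 222 and 202 with TNFα, a rise of 2.84 ± 0.23 on the log2 scale (SE, adjusted p = 7.67e-06). S100A3 was at 3.6, 9.46 and 7.48 normalized reads in DMSO and at 65.4, 86.6 and 62.05 with TNFα, a rise of 3.40 ± 0.34 on the log2 scale (SE, adjusted p = 5.01e-05), and its model overlaps S100A4. In each of the 4 genes the groups were apart, as in every called gene. UBD, a ubiquitin-like modifier named here after its values were seen, had no read in DMSO and 143 over the TNFα libraries, at least 46-fold higher against the floor of 3 reads over the group.

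In TSZ and in TSZ with Nec-1s the cells also received TNFα, so the raised genes can be placed beside those levels, with the same TNFα libraries in each comparison. CXCL8 was at 37940, 30760 and 29970 normalized reads with TSZ and at 4074, 4018 and 4070 with TSZ and Nec-1s, against 2958 to 3369 with TNFα alone. The difference from TNFα alone was 3.40 on the log2 scale for TSZ (adjusted p = 2.26e-10) and 0.39 with Nec-1s (standard error 0.12, adjusted p = 0.18). NFKBIE was at 1034, 1320 and 1383 with TSZ, 0.45 above TNFα alone (adjusted p = 0.013). CD83 was lower with TSZ, at 36.6, 20.3 and 29.8, a difference from TNFα alone of -1.78 (adjusted p = 3.37e-05), and at 95.7, 98.97 and 117 with Nec-1s. CXCL10 was at 24.4, 7.9 and 16.7 with TSZ (-1.14, adjusted p = 0.014) and at 132, 143 and 149.9 with Nec-1s (2.06, adjusted p = 5.92e-04). C3 and ITGAM with TSZ were not called against TNFα alone (-0.48 and -0.21). COLCA1 was at 12.2, 14.7 and 8.33 with TSZ.

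The libraries differed in how their levels followed the GC content of transcripts. Spearman's rho between a gene's deviation from its group's mean log2 level and its GC content, across 11476 genes that are not independent replicates, was 0.53, -0.79 and 0.77 in DMSO a, b and c and -0.60, 0.47 and 0.22 in TNFα a, b and c. The log2 fold change itself had a rho of 0.36 with GC content, and the median GC content was 53.9% for the higher genes, 49.4% for the lower and 47.9% for all tested. Once each library's GC trend was removed, 341 of the 344 higher and 114 of the 118 lower genes were still called, among 911 higher and 567 lower. With only the 6 libraries of the comparison in the fit, 194 of the higher and 25 of the lower genes were called.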

How the data were processed

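PolyA RNA of 12 HT-29 libraries (4 groups of 3, all at 8 h) was sequenced as single-end reads. Reagents differ between the labels (RNAiso Plus, NEB Ultra) and the paper (Trizol, VAHTS). Mapping by the authors used STAR 2.3.0e and hg38, and they counted reads with HTSeq 0.5.4e in intersection-strict mode without strand, and scaled the counts with DESeq. The signal in the 6 deposited tables is the authors' mean of scaled counts per group. Their fold change and p-value columns hold the authors' own comparisons and were not used.

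Each group mean averages 3 whole counts, each over its size factor. The 3 smallest means of a group gave what 1 read is worth in each library, and whole reads were solved for 15849 of 15850 genes above 0 in DMSO and 15652 of 15664 with TNFα; above a mean of 500 each library was taken to lie within 4-fold of the mean, and above 5000 within 1.6-fold. Recovery and fit were run on simulated data. The simulated libraries lay close to their group's mean and carried no GC trend, so the 4-fold and 1.6-fold limits and the GC trend were not put to the test. limma 3.58.1 in R 4.3.3 (voom, 0.5 reads added) was fitted to the 12 libraries in 4 groups, for genes averaging at least 10 across DMSO and TNFα, with Benjamini-Hochberg adjustment. Since no source ties libraries to separate cultures, p-values reflect the spread among these libraries alone, which may be technical. Folds of genes with at most 3 DMSO reads carry exact (Clopper-Pearson) 95% intervals or a floor of 3 reads over the group, for counting error only. Symbols were matched to GENCODE v44, 23161 directly and 1384 by an older symbol, and 1940 were not matched. The 30 gene lists come from general knowledge, and members and lists were chosen with earlier results of these data known.

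Named genes are the 20 largest rises and 15 largest falls with a mean of at least 30, up to 3 called members per list and direction, the genes the paper names, and the 3 called genes nearest to 2-fold on either side; other genes were named after their values were seen. The 16 alternatives changed the libraries, scaling, filter, pseudocount, weights or GC trend, or left out 1 library, and 1 more was added after seeing the data. Other steps ran in Python 3.11.15 (pandas 2.3.3, numpy 2.4.6, numba 0.67.0, scipy 1.17.1, matplotlib 3.10.9). Some genes of the lists are not reported here.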

Additional observations from a re-analysis of the deposited data

How the results depend on the processing

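Of the 344 higher and 118 lower genes, all kept their sign under every alternative, 185 and 18 were called under each of the 16 that could include them, and of the 2-fold genes 131 of 148 higher and 13 of 39 lower were. The 2-fold higher genes stayed within 1.5 times of 148 throughout. With only the 6 libraries in the fit there were 194 higher, 26 lower and 21 lower by 2-fold or more, and with size factors recomputed from these 6 there were 192, 30 and 21. Scaling to total reads, which shifted the median over all genes to -0.07, gave 320 higher and 221 lower. A mean of at least 50 gave 21 lower by 2-fold or more. Library quality weights gave 1218 higher, 903 lower and 97 lower by 2-fold or more, and the GC trend removed gave 911, 567 and 62. The quality weights of DMSO libraries a, b and c were 5.22, 0.12 and 0.70, so the DMSO side of that alternative rests mostly on library a. The GC trend removed in the 6 libraries alone, an alternative chosen after seeing the data, gave 302 lower. The cause of these differences was not tested. Leaving out 1 library gave 225 to 369 higher and 40 to 217 lower, and 20 to 47 lower and 136 to 160 higher by 2-fold or more. The lowest count of higher genes, 225, came without TNFα library c; the lower genes fell to 45 without DMSO library a, and to 51, 40 and 50 without TNFα library a, b and c, and rose to 217 without DMSO library b. Those lower by 2-fold or more were 24 without DMSO library a and 24, 20 and 23 without TNFα library a, b and c. The log2 fold change of RIPK3, 0.03 and not called, was -0.037 scaled to total reads, -0.009 with quality weights, -0.027 with the GC trend removed, -0.039 with it removed in the 6 libraries, and at its lowest -0.108 without DMSO library b and -0.058 without TNFα library c. For the named genes, 1590 values kept direction and call, 197 lost the call and 3, all of RELA, gained it. No paired analysis was possible because the tables carry no replicate numbers. Depth limits the low genes: the median standard error was 0.34 at means of 10 to 50 and 0.12 from 1000 upwards.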

Other observations

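Some genes outside all the lists, chosen after their values were seen, also changed by the limma test (Benjamini-Hochberg adjusted, mean ± SD in normalized reads, n = 3). IFNGR1, a chain of the interferon γ receptor, was at 848.6 ± 244 in DMSO and 2155 ± 360 with TNFα. IFNGR2 and IFNAR2 rose by 1.11 and 1.49 on the log2 scale, and IFNAR1 was not called (0.22, adjusted p = 0.73). OPTN and SQSTM1, autophagy receptors that bind ubiquitin, rose by 2.303 and 1.23, with SQSTM1 at 3725 ± 590 in DMSO and 8670 ± 573 with TNFα. The signalling adaptors IRAK2 and TICAM1 of the Toll-like and interleukin 1 receptors rose by 2.15 and 1.25. SDC4, a cell surface proteoglycan, was at 1314 ± 119 in DMSO and 5716 ± 339 with TNFα, and KCNE3, a potassium channel subunit of colon epithelium, fell from 366.1 ± 49.4 to 175.9 ± 19.4. All of these but IFNAR1 were called under each of the 16 alternatives.

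Between a mean of 1 and the level of 10, 2414 further genes could be tested by limma with the lower filter, of which 21 were higher and 5 lower. The epithelial cytokine IL17C had no read in DMSO and 22 over the 3 TNFα libraries, and the chemokine CCL22 had none and 18. CSF2, the growth factor GM-CSF, had 5 reads and 47, the chemokine CXCL11 2 and 29, and the decoy receptor TNFRSF6B 7 and 48. The cornified envelope genes SPRR1A, SPRR1B and SPRR3 had 3, 6 and 2 reads in DMSO and 32, 54 and 38 with TNFα. The 5 lower genes were LRRC2, CDH7, LINC00483, TTBK1 and TGFB3, the last with 37 reads in DMSO and 9 with TNFα. These genes, too, were chosen after their values were seen.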
